A study of Setaria viridis with 13 samples.

Results

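Of the 35471 genes measured in Setaria viridis (green millet, a grass with C4 photosynthesis), 47 had their highest level along leaf 3 in its lower section by a wide margin. They were chosen by level alone: at least 10 FPKM in the lower section, and at least 3 times the level in each of the mid section, the base and the tip of the same leaf. FPKM counts sequenced fragments relative to transcript length and to the total of the sample. At least 10 FPKM was reached in the lower section by 5998 genes, and the 47 are 0.784% of them. The same rule turned to the other parts gave 62 genes for the mid section, 1 for the base and 178 for the tip.

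All samples came from wild-type plants of accession A10 grown in hydroponics under days of 8 hours. At 10 days after germination (stage V3) leaf 3 was sampled in 4 parts. The lower section lay beneath the ligule of leaf 2 and the mid section beyond it, the base is labelled as above a ligule, and the tip was the last part. Values across the parts of leaf 3 are given in the order lower section, mid section, base and tip. This is an order of listing, since the labels do not place the base between the mid section and the tip. The vegetative meristem and the bulk shoot were taken at the same age. The other samples were the coleoptile (stage VE, 3 days), the V5 bulk shoot, bulk root and inflorescence meristem (15 days), the bulk shoot of stage R (20 days), and a panicle from before anthesis (22 days) and another from after it (25 days). The labels do not say how far apart the leaf parts lay. Each sample had 3 biological replicates, but the values come as 1 column per sample with the replicates merged. The spread between replicates is therefore not known, and samples were compared without a test. Every comparison is a description of these 13 columns. Depth is unknown, and in bulk tissue fewer cells of a type and less RNA per cell cannot be told apart.

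A grass leaf grows from a zone of dividing cells at its bottom, so cells are older the nearer they lie to the tip. The lowest part of a young leaf is wrapped in the older leaves around it, where cells elongate, build walls and begin to form chloroplasts before they reach full light. The coleoptile is the sheath that covers the emerging shoot of a grass seedling, an organ whose growth is largely by cell elongation. The files and the reference gene table do not pair the gene IDs with names, so no role can be given for any of the 47 genes. The labels of the tissues could not be checked against marker genes for the same reason. Across all genes the lower section was closest to the mid section (Spearman correlation 0.953) and farthest from the root (0.723).

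Most of the 47 genes were of middling level. Their median in the lower section was 26.1 FPKM, against 25.1 for all 5998 genes at 10 FPKM or more there. Below 30 FPKM were 27 of the 47, and 10 were at 100 FPKM or more. They made up 0.836% of the summed FPKM of genes in the lower section, 0.155% of that in the mid section, 0.158% in the base and 0.0928% in the tip. A single gene, Si015158m.g, carried much of this sum. The 47 genes added up to 5267 FPKM in the lower section, and to 3027 without it.

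The mid section was the limiting sample of the rule. Of the 5998 genes, the lower section was at least 3 times the mid section for 54 (0.9%), at least 3 times the base for 483 (8.05%) and at least 3 times the tip for 1226 (20.4%). Among the 47 genes the mid section was the highest of the other 3 parts for 38, the base for 7 and the tip for 2. This count was not made over the 5998 genes, of which 76.5% were higher in the mid section than in the base. The median ratio of the lower section to the highest other part was 3.55, so most genes lay close to the limit. At 1 FPKM or more in every sample were 19 of the 47 genes, or 40.4% (background 83.4%). This share follows in part from the rule, which asked for low levels in the other 3 parts. In the tip alone 17 of the 47 were under 1 FPKM. A ratio of 4 or more was reached by 15 genes and a ratio of 6 or more by 4.

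Among the other 3 parts the median of the 47 genes was lowest in the tip. Their median was 7.22 FPKM in the mid section, 4.24 in the base and 1.68 in the tip, where the medians of all 5998 genes were 24.8, 18.0 and 18.7. The order of level of lower section over mid section over base over tip held for 35 of the 47, against 18.9% of the 5998 genes. The base was above the tip for 42 genes (background 46.6%), and the mid section above the base for 39 (background 76.5%). In the tip 17 of the 47 were under 1 FPKM (background 2.6%), and Si029701m.g was listed at 0. These counts follow in part from the rule, which asked for low levels in all 3 parts.

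**Figure D1:**
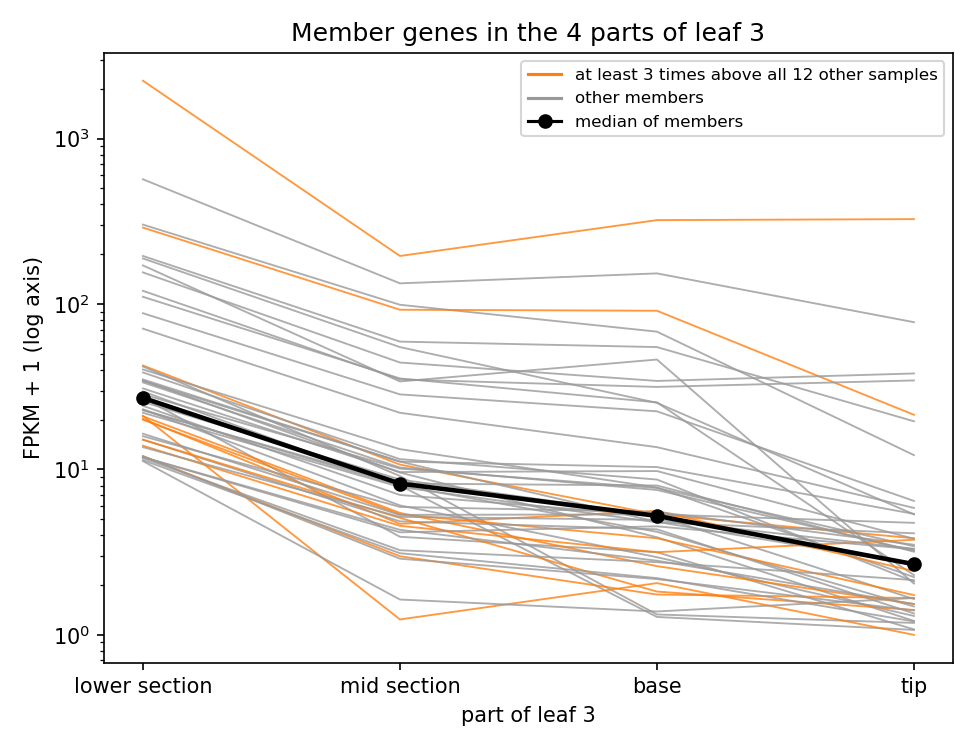
FPKM + 1 on a log axis in the 4 parts of leaf 3, with 1 line per gene for the 47 genes. Orange lines are the 10 genes at least 3 times above all 12 other samples, grey lines the others, and the black line the median, at 26.1 FPKM in the lower section and 1.68 in the tip. The order of the parts is one of listing.

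The most abundant of the genes, Si015158m.g, stood far above the rest. It was at 2240.1, 194, 321 and 325 FPKM across the parts of leaf 3. Outside leaf 3 it was at 248 in the V3 bulk shoot, 161 in the V5 bulk shoot, 90.8 in the coleoptile, 85.8 in the panicle after anthesis and 54.3 before it. The R bulk shoot held 58.3, the inflorescence meristem 44.6, the vegetative meristem 28.4 and the root 1.38. The lower section was thus 6.89 times the next sample, which was the leaf tip, and unlike most of the others the gene was as high in the tip as at the base.

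The second in level, Si020752m.g, had a flatter profile. It was at 567, 132, 152 and 76.7 FPKM across the parts of leaf 3. Outside leaf 3 its highest levels were 264 in the panicle after anthesis, 198 in the V3 bulk shoot and 184 in the vegetative meristem, and its lowest was 12.5 in the root. Every sample other than the root held it at 49.6 FPKM or more.

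The next 3 in level were all highest outside leaf 3 in the coleoptile. Si030910m.g was at 301, 98.0, 67.1 and 11.2 FPKM across the parts of leaf 3, and at 126 in the coleoptile and 10.6 in the root. Si018321m.g was at 289, 91.4, 90.1 and 20.4 FPKM across the parts of leaf 3, and at 88.3 in the coleoptile and 1.83 in the root. Si040308m.g was at 194, 58.3, 53.9 and 18.6 FPKM across the parts of leaf 3, and at 82.9 in the coleoptile and 1.23 in the root. In all of them the panicle after anthesis was low, at 20.3, 9.85 and 11.5 FPKM in that order.

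The largest ratios within leaf 3 were found in genes of low to middling level. Si029701m.g was at 20.1, 0.240 and 1.06 FPKM in lower section, mid section and base, and listed at 0 in the tip. Its lower section was 19.0 times the base, the largest ratio to the highest other leaf part among the 47. With 1 FPKM added to both levels the ratio was 10.3, and after median-ratio rescaling it was 14.0. Outside leaf 3 the gene was seen mainly in leafy samples. It was at 5.96 in the V5 bulk shoot, 4.58 in the coleoptile, 4.10 in the V3 bulk shoot and 1.57 in the R bulk shoot. The meristems, panicles and root held 0.0644 or less.

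Si019224m.g was barely over the minimum, at 10.2, 0.636, 0.385 and 0.670 FPKM across the parts of leaf 3, a ratio of 15.3. With 1 FPKM added to both levels that ratio was 6.73. This gene was far higher elsewhere, at 114 in the coleoptile, 100.1 in the inflorescence meristem and 76.2 in the panicle before anthesis. Si012402m.g was at 26.1, 2.92, 2.16 and 0.0792 FPKM across the parts of leaf 3, a ratio of 8.94. Its next samples were the coleoptile at 11.1 and the vegetative meristem at 7.22, and it was listed at 0 in the root.

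Outside leaf 3, the coleoptile was the sample in which these genes were most often highest. The limits of the rule did not use these 9 samples, which entered only the mean level by which 1 transcript per gene was kept. The coleoptile was the highest of the 9 for 26 of the 47 genes (55.3%), against 499 of the 5998 genes (8.32%). The root and the R bulk shoot were highest for 6 each (backgrounds 19.7% and 19.2%), the panicle after anthesis for 3 (9.84%), and the vegetative meristem (13.5%) and the V5 bulk shoot (12.8%) for 2 each. The V3 bulk shoot (2.07%) and the inflorescence meristem (9.65%) were highest for 1 each, and the panicle before anthesis for 0 (4.88%). In 1 gene, Si002472m.g, the V5 bulk shoot and the root were equal and it was counted with the former. After median-ratio rescaling of the samples, the coleoptile was highest for 30 of the 47 genes (63.8%, background 14.9%), and after scaling to equal sums for 24 (51.1%, background 7.09%). Under these scalings the R bulk shoot was highest for 0 (background 3.02%) and 9 of them (19.1%, background 28.2%).

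The same count was made for genes with a neighbouring profile along the leaf. In 384 genes the lower section was at least 3 times the base and the tip but less than 3 times the mid section. Of these, 78 (20.3%) were highest in the coleoptile among the 9 samples, 89 in the root and 57 in the vegetative meristem. Of the 62 genes of the mid section by the same rule, 10 (16.1%) were highest in the coleoptile, 12 in the root and 11 in the panicle before anthesis. These shares are descriptions of gene sets, and their difference from the 47 genes was not tested.

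**Figure D2:**
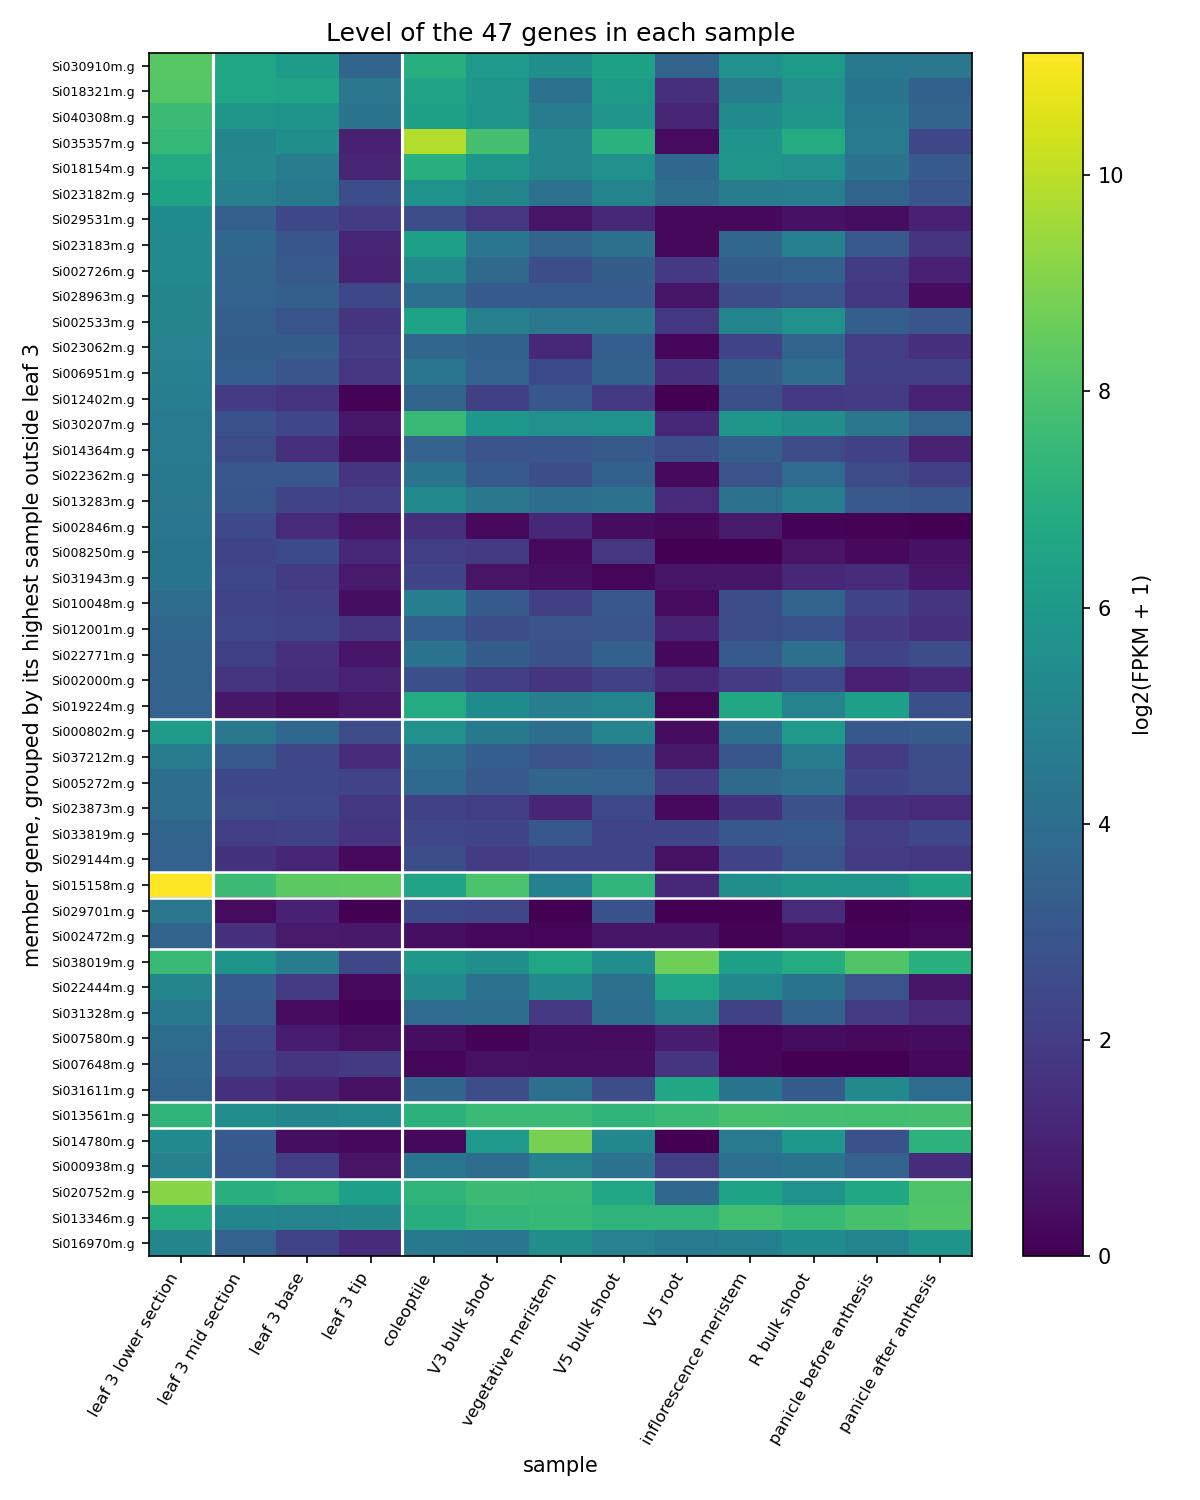
Level on the log2(FPKM + 1) scale (colour) of each of the 47 genes (rows) in each of the 13 samples (columns). Rows are grouped by the sample outside leaf 3 in which the gene is highest, with the 26 coleoptile genes on top and then 6 of the R bulk shoot, 1 of the V3 bulk shoot, 2 of the V5 bulk shoot, 6 of the root, 1 of the inflorescence meristem, 2 of the vegetative meristem and 3 of the panicle after anthesis. The root and leaf tip columns are dark for most of the coleoptile genes.

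The 26 coleoptile genes had medians of 26.8 FPKM in the lower section and 22.9 in the coleoptile. Their medians were 14.4 in the R bulk shoot, 10.2 in the V3 bulk shoot and 9.82 in the V5 bulk shoot, 8.78 in the inflorescence and 7.06 in the vegetative meristem. They were low in panicles, with medians of 3.84 before and 2.78 after anthesis, and lowest in the root (0.858) and the leaf tip (1.36). In 10 of the 26 the coleoptile was above the lower section itself, a count that was not made for other genes. Whether 10 of the 26 is high or low is therefore not known.

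The coleoptile level of these genes spread widely. Si035357m.g was at 909 FPKM in the coleoptile, 228 in the V3 bulk shoot and 139 in the V5 bulk shoot, against 170.3, 33.1, 45.2 and 1.04 FPKM across the parts of leaf 3. It was at 4.13 in the panicle after anthesis and 0.257 in the root. Si030207m.g reached 179 in the coleoptile with 60.4 for the V3 bulk shoot, against 23.3, 6.01, 4.24 and 0.647 FPKM across the parts of leaf 3. Its levels were 57.5 in the inflorescence and 48.9 in the vegetative meristem, and 1.45 in the root. In both genes the bulk shoot of the same age was above the lower section.

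Some genes were close to the median profile of the 47 and others were not. Over the 9 samples outside leaf 3, the Pearson correlation with the median log2(FPKM + 1) profile was 0.985 for Si013283m.g, 0.984 for Si002533m.g and 0.969 for Si030910m.g. These 9 points share the scaling of each sample, and the genes are part of the median. Si013283m.g was at 38.1 FPKM in the coleoptile, 26.1 in the R bulk shoot, 21.0 in the lower section, 20.7 in the V3 bulk shoot, 16.8 in the V5 bulk shoot, 16.6 in the inflorescence and 15.0 in the vegetative meristem. It was at 7.75 in the panicle before and 6.84 after anthesis and in the mid section, 3.79 in the base, 3.11 in the tip and 1.55 in the root. In all, 20 of the 47 genes had a correlation with the median profile over 0.9, of which 16 were coleoptile genes, and 8 had one below 0. These correlations were not computed for other genes.

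Between 2 samples outside the limits of the rule, the coleoptile and the V3 bulk shoot, most of the 47 genes were higher in the coleoptile. This contrast was added after the data were seen and is not independent of the count above. The 26 genes highest in the coleoptile among the 9 samples are above the V3 bulk shoot by definition. The coleoptile was above the V3 bulk shoot for 40 of the 47 genes (background 56.2%), and at least 3 times above it for 8 (2.68%) against 1 in the other direction (8.79%). The median difference was 0.70 on the log2(FPKM + 1) scale, with quartiles of 0.17 and 1.11, and 0.11 over the 5998 genes. After median-ratio rescaling it was 0.60 for the 47 genes and 0.00 for the 5998, with 39 of the 47 higher in the coleoptile. A median difference of 0.52 was found for the 384 neighbouring genes, with 73.7% above and 13.8% at least 3 times above. For the 62 genes of the mid section it was 0.63, with 40.3% at least 3 times above and 27.4% at least 3 times below, so a positive median was also seen in these related gene sets. Genes of low level pass a ratio of 3 more easily, and no minimum FPKM was asked for in these contrasts.

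The root held little of most of these genes. The V5 bulk shoot was at least 3 times the root for 31 of the 47 (background 35.3%), and the root at least 3 times the shoot for 6 (11.6%). The median difference of shoot minus root was 1.90 on the log2(FPKM + 1) scale, with quartiles of 0.20 and 2.99, against 0.57 over the 5998 genes. For the 62 genes of the mid section it was 1.305, with the shoot at least 3 times the root for 56.5%. For the 384 neighbouring genes it was 0.48, with 38.3%. The root median was 1.38 FPKM for the 47 genes and 1.46 for those 62, so a low root was also seen in the mid section set. In the root 21 of the 47 were under 1 FPKM (background 13%), and 4 were listed at 0. Of the 26 coleoptile genes, 13 were under 1 FPKM in the root.

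In bulk shoots the share of these genes that was higher at a later age was below the background share. The R bulk shoot was above the V3 bulk shoot for 28 of the 47 genes, against 80.9% of the 5998, and at least 3 times above it for 1 (3.25%) and at least 3 times below it for 5 (0.884%). The median difference of R minus V3 was 0.11 on the log2(FPKM + 1) scale, against 0.54 over the 5998 genes. Rescaling by the median ratio turned both signs, to -0.55 for the 47 and -0.19 for the 5998, so only the gap between them has the same sign under both. The gap in shares was smaller after it, with R above V3 for 13 of the 47 (27.7%) against 34.6% of the 5998. The V5 bulk shoot was above the V3 bulk shoot for 19 of the 47 (background 77.1%), with medians of -0.06 and 0.31. After median-ratio rescaling this held for 12 of the 47 (25.5%, background 54.5%).

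The medians of the 47 genes were lower in the meristems and panicles than in the bulk shoots. They were 7.82 FPKM in the vegetative and 9.41 in the inflorescence meristem. In the panicle they were 3.96 before and 3.38 after anthesis. The lowest bulk shoot median was 10.1, at V5, little above that of the inflorescence meristem. The vegetative meristem was above the V3 bulk shoot for 15 of the 47 genes (background 62.1%), at least 3 times above it for 4 (5.27%) and at least 3 times below it for 8 (15%), with a median difference of -0.40 on the log2(FPKM + 1) scale against 0.37 over the 5998, and of -0.92 against -0.16 after median-ratio rescaling. The inflorescence meristem was above the vegetative meristem for 32 of the 47 (background 50.5%), with a small median difference of 0.19. The panicle before anthesis was at least 3 times that after it for 8 genes (3.3%), and the reverse held for 4 (0.934%). The comparisons with the V3 bulk shoot share its column and are not independent of each other.

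The 6 genes highest in the root outside leaf 3 had unlike profiles. Si038019m.g was at 412 FPKM in the root, 271 in the panicle before and 133 after anthesis, 119 in the bulk shoot of stage R and 92.7 in the vegetative meristem. It was at 188, 53.9, 24.3 and 4.35 FPKM across the parts of leaf 3. Si031611m.g was at 100.8 in the root, 39.5 in the panicle before anthesis, with 19.0 for the inflorescence and 16.1 for the vegetative meristem, and at 11.0, 1.89, 1.17 and 0.404 FPKM across the parts of leaf 3. Both were thus higher in root and panicle than in any part of the leaf, with the exception of the panicle after anthesis for Si038019m.g. Of the other 4 genes highest in the root outside leaf 3, Si022444m.g (96.0 FPKM) and Si031328m.g (30.8 FPKM) were above the lower section there, and Si007580m.g (0.866) and Si007648m.g (2.27) were not. These 4 are named because they complete the group.

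The vegetative meristem was highest outside leaf 3 for Si014780m.g and Si000938m.g. Si014780m.g reached 454 FPKM in that sample, 147 in the panicle after anthesis, 61.2 in the V3 bulk shoot, 60.8 in the R bulk shoot, 35.3 in the V5 bulk shoot and 23.4 in the inflorescence meristem. It was at 40.9, 8.13, 0.329 and 0.181 FPKM across the parts of leaf 3. It was at 0.165 in the coleoptile and listed at 0 in the root. Si000938m.g differed little between the vegetative meristem (30.6 FPKM) and the lower section (28.7).

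Of the 6 genes highest in the R bulk shoot outside leaf 3, the 2 most abundant there were close to the lower section in level. Si000802m.g was at 70.0 FPKM in the lower section and 63.4 in the R bulk shoot, then 48.5 in the coleoptile, 21.0 in the mid section, 12.6 in the base, 4.86 in the tip and 0.310 in the root. Si037212m.g was listed at 24.6 FPKM in both the lower section and the R bulk shoot, with 15.9 in the coleoptile, 7.69 in the mid section, 4.24 in the base, 1.68 in the tip and 0.693 in the root. In Si023873m.g the lower section (14.9) was 2.58 times the R bulk shoot (5.77). After median-ratio rescaling, which lowers the R bulk shoot, none of the 47 was highest there among the 9 samples (background 3.02%).

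A pair of genes was low in 3 of the 4 parts of leaf 3 and more even elsewhere. Si013561m.g was at 154, 43.3, 33.3 and 37.1 FPKM across the parts of leaf 3. In the 9 samples outside leaf 3 it ran from 140.0 in the coleoptile to 236 in the inflorescence meristem. Si013346m.g was at 119, 34.0, 30.6 and 33.5 FPKM across the parts of leaf 3, and elsewhere ran from 121 in the coleoptile to 271 in the panicle after anthesis. In all 13 samples their log2(FPKM + 1) values were within 0.37 of each other, the closest match among the 1081 pairs of the 47 genes. For both, the lower section was on a level with the coleoptile, and the 3 other leaf parts were the samples that stood apart. Si013346m.g is named for this match, chosen after its values were seen. If such genes share reads through near-identical sequence, their levels are uncertain, and this was not tested.

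The lower section was the highest of all 13 samples for 27 of the 47 genes (background 20.3%), counting the tie of Si037212m.g. For the other 20 some sample outside leaf 3 was higher, and in 5 it was at least 3 times higher (background 24%). The 5 were Si019224m.g with a ratio of 11.2 (coleoptile), Si014780m.g with 11.1 (vegetative meristem), Si031611m.g with 9.13 (root), Si030207m.g with 7.69 and Si035357m.g with 5.34 (both coleoptile). The lower section was itself used by the rule, so these counts are descriptions.

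**Figure D3:**
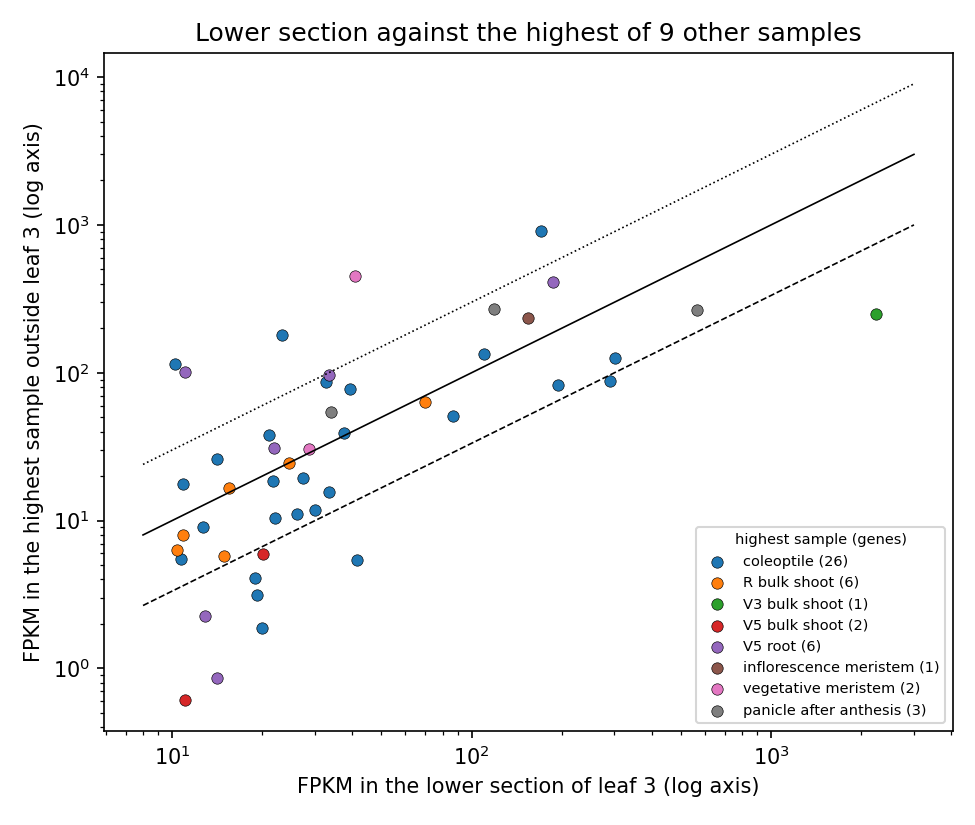
FPKM of each of the 47 genes in the lower section (x axis, log) against its FPKM in the highest of the 9 samples outside leaf 3 (y axis, log), coloured by that sample. The solid line marks equal levels, the dashed line the lower section 3 times higher and the dotted line the other sample 3 times higher; 5 genes lie above the dotted line, and Si015158m.g is at the far right with 2240.1 FPKM.

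At the other end, 10 of the 47 genes were at least 3 times higher in the lower section than in each of the 12 other samples, which is 0.167% of the 5998. Abundant among them were Si015158m.g and Si018321m.g. The other 8 were between 11.0 and 41.5 FPKM in the lower section and between 0.613 and 5.96 in their highest sample outside leaf 3. Over the 10 genes the median across the parts of leaf 3 was 19.6, 4.22, 2.50 and 1.08 FPKM, and 3.60 in the coleoptile. It was 1.42 in the V3, 1.04 in the V5 and 0.485 in the R bulk shoot, and between 0.153 and 0.586 in the root, the meristems and the panicles. For most of these genes the next highest sample was the mid section.

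The largest of these ratios after Si015158m.g was that of Si002472m.g. It was at 11.0, 1.99, 0.753 and 0.670 FPKM across the parts of leaf 3, and at 0.613 or less in the 9 other samples, a ratio of 5.55 to the next sample. Si002846m.g was at 20.0, 4.46, 1.60 and 0.537 FPKM across the parts of leaf 3, and outside leaf 3 at 1.87 in the coleoptile, 1.45 in the vegetative meristem and under 1 in the rest. Si031943m.g was at 19.0, 4.35, 2.84 and 0.741 FPKM across the parts of leaf 3, with 4.06 in the coleoptile. Si029531m.g was at 41.5, 9.70, 4.35 and 2.84 FPKM across the parts of leaf 3, with 5.41 in the coleoptile and 2.36 in the V3 bulk shoot. In the last of these the other 7 samples were at 1.46 FPKM or less.

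The bulk shoots were sampled whole, and the labels do not say whether the lower section was part of them. For the 47 genes the median was 10.5 FPKM in the V3 bulk shoot, 10.1 in the V5 bulk shoot and 16.1 in the R bulk shoot. The lower section was at least 3 times the V3 bulk shoot for 21 genes (background 15.8%), the V5 bulk shoot for 20 (9.79%) and the R bulk shoot for 18 (10.8%). It was at least 3 times the vegetative meristem for 30 (26.8%), the inflorescence meristem for 27 (30%), the root for 39 (39.8%), the panicle before anthesis for 37 (25.9%) and after it for 36 (28.6%). For the coleoptile the count was 14 (23.2%), the sample nearest to its background. The median difference of lower section minus coleoptile was 0.76 on the log2(FPKM + 1) scale, against 0.58 over the 5998 genes. In the other direction the coleoptile was at least 3 times the lower section for 3 genes (8.02%), the panicle before anthesis for 2 (9.3%) and the R bulk shoot for 0 (7%). It was 1 gene each for the V3 bulk shoot (3.62%), the V5 bulk shoot (2.78%), the vegetative meristem (9.75%), the inflorescence meristem (12%), the root (12.2%) and the panicle after anthesis (11.1%). Since the genes were chosen for a high lower section, larger shares than the background follow in part from the choice.

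**Figure D4:**
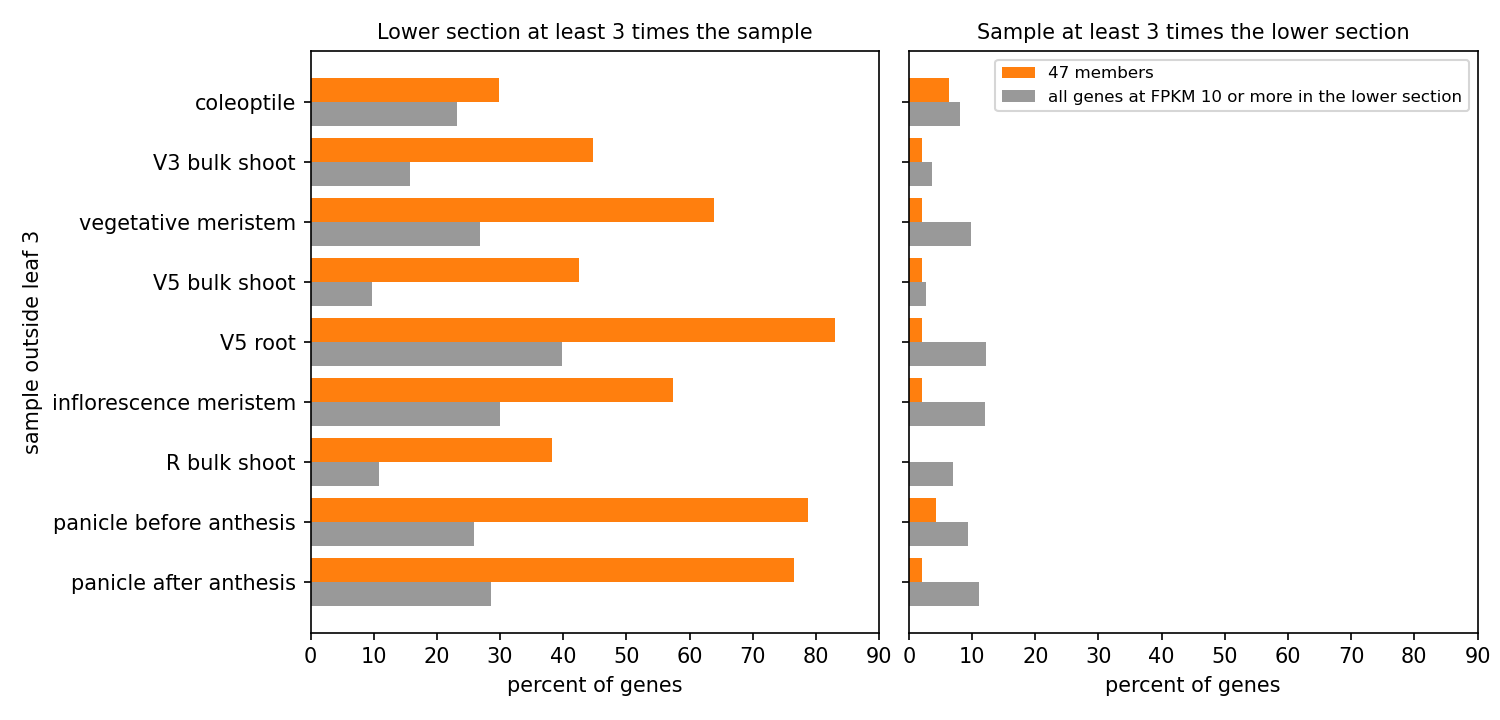
Percent of the 47 genes (orange) and of the 5998 genes at 10 FPKM or more in the lower section (grey) for which the lower section was at least 3 times each sample outside leaf 3 (left) or that sample at least 3 times the lower section (right). The orange bar is longer than the grey bar in all 9 rows on the left, with the smallest gap for the coleoptile (14 of 47 genes, background 23.2%).

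More than 1 transcript was annotated for 5 of the 47 genes (background 28.2%). In Si030910m.g the second transcript was at 299 FPKM in the lower section against 301 for the first, in Si023182m.g at 86.4 against 87.0, and in Si023183m.g at 38.4 against 39.2. In each of these both transcripts met the rule. The second transcript of Si033819m.g, at 8.65 FPKM and a ratio of 2.75, did not meet it.

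A start site offset, given by the authors as 1 signed number of nt per gene, was listed for 27 of the 47 genes, or 57.4% (background 49.2%). The making of the offsets and the meaning of their sign are not stated in the labels or the files. The offsets of the 27 genes had a median of -9 nt with quartiles of -23.5 and -4, against -3 with quartiles of -13 and 35 for the 2951 genes at 10 FPKM or more in the lower section that had one. They were negative for 22 of the 27 (81.5%), against 53.7% of the 2951 genes and 61.1% of all 4900. Between -20 and -1 lay 13 of the 27, against 35.3% of the 2951. The lowest was -148 in Si000938m.g and the highest 81 in Si013561m.g, and none was above 100, against 8.51% of the 2951. The median over all 4900 genes was -7, between that of the 27 genes and that of the 2951. With 27 genes the shares are coarse, and the differences were not tested.

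At the limits of the rule the genes inside and outside were close in value. Just inside the ratio of 3 were Si006951m.g (3.01), Si023873m.g (3.02) and Si022362m.g (3.02), and just outside were Si034382m.g (2.97), Si007776m.g (2.95) and Si037781m.g (2.95). The rounding of the table to 2 decimals could put 3 of the 47 genes under the ratio. Nearest to the minimum of 10 FPKM were Si019224m.g (10.2), Si029144m.g (10.4) and Si002000m.g (10.7) inside, and Si023829m.g (9.63), Si030801m.g (9.34) and Si031233m.g (9.13) outside. Si023829m.g missed the minimum narrowly and had a ratio of 30.1 to the highest other leaf part, above all 47 genes.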

How the data were processed

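Polyadenylated RNA was made into cDNA with the SMARTer kit and sequenced from both ends, 100 nt each, per the labels' protocols. STAR and DESeq2 appear in the submitters' processing notes without a role or a version. Genome build, gene models and the way of merging replicates are not stated there or in the labels. The deposited table holds log2 values per transcript, rounded to 2 decimals, from 0 to 16.6. They were read as log2(FPKM + 1). Neither the base nor the added 1 is stated, and both come from the size of the values. FPKM depends on the total of each sample, so abundant genes lower all others. The depth per sample is unknown, and a value of 0 can be a failed estimate. The second deposited file holds 1 signed start site offset in nt per gene, and how the authors made it is not stated.

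With Python 3.11.15, pandas 2.3.3 and numpy 2.4.6 (figures: matplotlib 3.10.9), the 40599 transcripts were reduced to 35471 genes, each by its transcript with the highest mean FPKM. No 2 columns were identical. Of the 34587 entries of the reference gene table (Setaria_viridis_v4.0), 0 carried an ID of these files. The coding of the rule was checked on genes whose lower section was set to known multiples of the highest other leaf part. Such a check shows only that the limit was applied as written, not how reliable membership is. Background shares are over the 5998 genes at 10 FPKM or more in the lower section. The members and lists were chosen with earlier results of these data known. Genes named were the most abundant, those with the largest ratios, the 2 highest per sample holding at least 5 genes, those nearest the median profile, those with abundant second transcripts, the extreme offsets and those at the limits. Alternatives were 2 scalings, 2 transcript choices, other limits, a pseudocount of 1 and a filter on low values.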

Additional observations from a re-analysis of the deposited data

How the results depend on the processing

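No paired analysis was possible because each sample had 1 column with its replicates merged, and for the same reason no replicate could be left out. Median-ratio rescaling (log2 factors from -0.54 in the leaf base to 0.55 in the R bulk shoot) raised the base against the lower section by 0.45. It gave 35 genes, with 33 of the 47 among them, and 18 rather than 27 were highest in the lower section of all samples and 0 rather than 6 in the R bulk shoot outside leaf 3. Scaling to equal sums gave 64 genes, all 47 included, with 41 rather than 27 highest in the lower section of all samples, and 10 each highest in the root and the R bulk shoot outside leaf 3. A minimum of 5 FPKM gave 60 genes, with 9 rather than 6 highest in the root outside leaf 3. A minimum of 20 FPKM left 31 genes, with 16 highest in the lower section, 4 at least 3 times over each other sample, 3 highest outside leaf 3 in the root and 2 in the R bulk shoot. A fold of 2 gave 310 genes, with 209 highest in the lower section, 89 past that fold over each other sample, and 144, 29 and 62 highest outside leaf 3 in the coleoptile, the root and the R bulk shoot. A fold of 4 gave 15 genes, with 11, 6, 8, 1 and 1 in the same order, and a median log2 difference from the V3 bulk shoot of 2.05 rather than 1.37. A pseudocount of 1 in the ratio gave 37 genes, with 4 highest in the root and 3 in the R bulk shoot. The remaining counts and medians, among them the median difference from the vegetative meristem (1.84) and the median offset, moved by less than 1.5 times, and the medians of the lower section against the vegetative meristem and the V3 bulk shoot kept their sign. The median of the R minus the V3 bulk shoot did not, with 0.11 as deposited and -0.55 after median-ratio rescaling. By gene, the ratio dropped under 3 for 14 of the 47 under median-ratio rescaling, 10 with the pseudocount and 1 with summed transcripts, and stayed above 1 in all of them. The contrasts between samples outside leaf 3 and the related gene sets were added after seeing the data. FPKM without counts sets no error on any value, which weighs most on the genes near 10 FPKM and on levels under 1.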

Other observations

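The 47 genes did not form a single profile outside leaf 3. Over their 1081 pairs the median Pearson correlation across the 9 samples was 0.436 on the log2(FPKM + 1) scale, and 137 pairs were over 0.9. No such values were computed for other genes, so whether the 47 are more or less alike than others is not known. The highest pairs were Si000802m.g with Si022771m.g (0.988), Si035357m.g with Si023183m.g (0.980) and Si018321m.g with Si040308m.g (0.980). The last pair also stayed within 0.73 of each other in log2(FPKM + 1) in all 13 samples. These correlations rest on 9 points that share the scaling of each sample, and the pairs were chosen after their values were seen.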
